A study of Mus musculus with 24 samples.

Results

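The comparison set the highest of 3 doses of a plant extract against the middle dose in mouse lungs challenged with bacterial lipopolysaccharide (LPS), and asked which transcripts differed between mice that had drunk 1.5 mg/mL and mice that had drunk 1 mg/mL. Its members were the 5 high-dose and 5 mid-dose lung libraries, chosen by their labels, 10 of the 24 libraries of the series. All mice were wild-type C57BL/6 animals, labelled as 7 weeks old and male and fed an AIN-76A diet. The mid-dose and high-dose mice received AEAA, a water extract of Artemisia argyi (mugwort), in drinking water for 28 days and 5 mg/kg LPS into the trachea on day 29. The other groups used beside them were LPS without extract (5 libraries), LPS after the low dose of 0.5 mg/mL (5 libraries) and a control without extract (4 libraries) that received saline in the protocol although its characteristics name the LPS challenge. Lungs of every group were taken 8 h after the challenge. No group received the extract without LPS, so an effect of the extract itself and an effect on the response to LPS cannot be told apart.

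LPS in the airways is sensed by Toll-like receptor signalling in macrophages and epithelium, which release cytokines and CXC chemokines that draw neutrophils into the air spaces. The lung around them is built of alveolar and airway epithelium, a dense capillary endothelium, pericytes and smooth muscle cells that surround the vessels, and fibroblasts that lay down collagen, elastic fibres and basement membrane. In whole lung, fewer cells of a type and less RNA per cell cannot be told apart.

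The values were TPM, a measure of transcript abundance per transcript length and per library. Each library was divided by its median-of-ratios factor, so levels below are scaled TPM, differences are high dose minus mid dose on the log2(scaled TPM + 1) scale with their standard error, and adjusted p-values come from limma with Benjamini-Hochberg adjustment over 17823 genes. The threshold for a call, written below as passing, was an adjusted p of 0.05. For genes of low level the pseudocount of 1 shrinks the difference below the ratio of the levels. The 12 largest increases and the 12 largest decreases were chosen among genes that passed without overlap between the libraries of the doses. Their lack of overlap, where given below, follows from that choice.

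Defining markers of alveolar epithelium, club and ciliated cells, endothelium and fibroblasts were present in all 10 libraries. Xist, the transcript of the inactive X chromosome in females, was at 41.3 to 70.7 TPM in these libraries, and the Y-linked Ddx3y was listed at 0 in each of them, which goes against the labelled sex. Cxcl2, a neutrophil-attracting chemokine induced by LPS, was at 0.40 and 0.52 TPM in mid-dose libraries 4 and 1 and at 0.37 and 0.44 TPM in high-dose libraries 4 and 1, near the 0.06 to 0.27 TPM of the controls. It was at 149.55 to 454.09 TPM in the other 3 mid-dose libraries and at 178.78 to 333.56 TPM in the other 3 high-dose libraries. Both groups therefore held 2 libraries with little Cxcl2 and 3 with much of it.

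Of the 17823 genes, 1396 passed (7.83%), 725 higher (4.07%) and 671 lower (3.76%) at the high dose. The differences were small: the median size was 0.50 among genes that were higher and 0.51 among genes that were lower, and 15 higher and 24 lower genes differed by at least 1. The 5 high-dose libraries lay wholly above or below the 5 mid-dose libraries for 821 genes (4.61%; 354 higher, 1.99%, and 467 lower, 2.62%), among them 572 of the genes that passed. Among the gene lists, those of cytosolic ribosomal proteins and of the mitochondrial respiratory chain had the largest shares of higher genes, and those of fibroblasts and of the basement membrane the largest shares of lower genes. Without the 4 libraries with little Cxcl2, 2142 genes passed (1300 higher and 842 lower). Leaving out single libraries gave 766 genes without mid-dose library 3, 439 without mid-dose library 4, 3002 without high-dose library 1, 653 without high-dose library 3 and 474 without high-dose library 5. The count rests on how the spread was estimated. Fitted to the 10 libraries alone, no gene passed in limma, the smallest adjusted p was 0.0664, and 3276 genes had an unadjusted p under 0.05, against 4182 in the fit to all 24 libraries, whose groups share 1 estimate of the spread. Every call below, those of the lists included, is lost in the fit to the 10 libraries alone.

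The total of each library is fixed in TPM, and the scaling decides how the calls divide. With TPM as deposited the median difference over all genes was -0.21 against 0.00 after scaling, and 3311 genes passed (18.6%), 171 higher (0.959%) and 3140 lower (17.6%). The 842 genes called in both had the same sign in both. Differences below are relative to the median of the genes after scaling.

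Cytosolic ribosomal proteins, the structural proteins of the ribosome, were the list with the largest share of higher genes. Of 33 tested members 27 rose and none fell, all 33 differences were positive, and their median was 0.58 against 0.00 over all genes tested. The count was 16 without mid-dose library 4 and 17 with TPM as deposited, with none lower in either. Over all 86 protein-coding ribosomal protein genes, a wider set found by symbol after these values had been seen, 71 rose, none fell and the median was 0.58. Reads of these genes can be split among their many pseudogenes, of which 37 were tested and 9 rose.

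The starts of these genes are shown because transcripts of ribosomal proteins are known to begin in a run of pyrimidines (C or T) that regulates their translation. Each window holds 15 bases before and 15 bases from the start base on, from RefSeq on build GRCm38.p6, 5′ to 3′ on the gene's strand. That build is older than the GRCm39 named in the submitters' processing notes. Capitals mark the longest run of C or T on this strand. The first 5 are the ribosomal genes of the list with the largest increases that had an entry that could be shown, and the last 3 are the basement membrane genes with the largest decreases and an entry. Rps20 and Rpl17, described below, belong to the 86 ribosomal protein genes found by symbol but not to the list of 33. Neither had an entry that could be shown.
Rplp2 (chr7:141447636-141447665, plus strand): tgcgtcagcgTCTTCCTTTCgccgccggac
Rpl38 (chr11:114668565-114668594, plus strand): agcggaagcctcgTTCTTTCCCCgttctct
Rpl41 (chr10:128549154-128549183, minus strand): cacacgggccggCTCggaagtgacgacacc
Rpl39 (chrX:37085208-37085237, minus strand): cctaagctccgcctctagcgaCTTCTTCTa
Rps28 (chr17:33824548-33824577, minus strand): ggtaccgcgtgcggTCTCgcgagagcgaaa
Nid1 (chr13:13437587-13437616, plus strand): gggaCgacgggaggcgggaggtgaggaggg
Col4a4 (chr1:82586835-82586864, minus strand): gCCCagattaagcgggaggcgcgcgggagt
Lama2 (chr10:27616928-27616957, minus strand): ggggtggggactgCCCTTTCTCacccaccc
A run of 8 or more C or T lay in the window of 11 of 23 matched ribosomal genes of the list (47.8%), of 6 of 13 matched basement membrane genes (46.2%), of 0 of 12 matched fibroblast genes, of 2 of 19 matched respiratory chain genes (10.5%) and of 3205 of all 27025 gene starts (11.9%). The run was counted anywhere in the window, also before the start base. These shares therefore do not show whether the transcripts begin in such a run. Counted in this way, the run was about as frequent at basement membrane genes, which were lower, as at ribosomal genes, which were higher. Only 3 of the 5 ribosomal windows shown (Rplp2, Rpl38 and Rpl39) hold such a run, and Lama2 holds one too.

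Rpl17, a protein of the large ribosomal subunit, was at 1106, 1154, 953, 921 and 914 scaled TPM in mid-dose libraries 1 to 5 and at 1294, 1870, 1606, 1705 and 1785 in high-dose libraries 1 to 5. The lowest high-dose library lay above the highest mid-dose library. The difference was 0.71 ± 0.10 (adjusted p = 0.00146, limma). Rps20, of the small subunit, was at 239, 247, 159.8, 191 and 163 in the mid-dose libraries and at 256, 299, 359, 431 and 434 in the high-dose libraries. Again no library overlapped, with high-dose library 1 only just above mid-dose library 2, and the difference was 0.82 ± 0.16 (adjusted p = 0.00719). Rplp2, a protein of the stalk that recruits elongation factors, had the largest increase of the list, 0.96 ± 0.18 (adjusted p = 0.00619). Its mid-dose libraries were at 599, 701, 492, 386 and 459.9 and its high-dose libraries at 576, 1086, 1162, 1125 and 1264. High-dose library 1 lay within the mid-dose range, and the other 4 lay above it. The same library was the lowest of its group for Rpl38 (0.76 ± 0.15, adjusted p = 0.00654) and for Rpl41 (0.74 ± 0.17, adjusted p = 0.0127). Rpl38 was at 1276, 1416, 1051, 927 and 1036 in the mid-dose and at 1308, 2193, 2004, 1886 and 2306 in the high-dose libraries. Without high-dose library 1 all 33 genes of the list passed.

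The levels of these genes did not follow the dose. Mean Rpl17 was 1555 ± 140 (SD, n = 4) in controls, 1007 ± 82.3 (SD, n = 5) with LPS alone, 1332 ± 47.4 (SD, n = 5) at the low dose, 1009 ± 112 (SD, n = 5) at the mid dose and 1652 ± 222 (SD, n = 5) at the high dose. The mid-dose mean lay at the level of LPS alone and the low-dose mean lay between the mid and the high dose. Rplp2 had the same order among the extract doses, with 769 at the low, 527 at the mid and 1043 at the high dose. The comparisons of the high dose with LPS alone (1594 genes passed, 8.94%) and of the mid dose with LPS alone (0 passed in limma, 0%, and 541 at an unadjusted p under 0.05) share libraries with the one described here. Between the high and the low dose 5 genes passed (0.0281%), and between the mid and the low dose none did in limma (0%, and 2232 at an unadjusted p under 0.05).

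**Figure D1:**
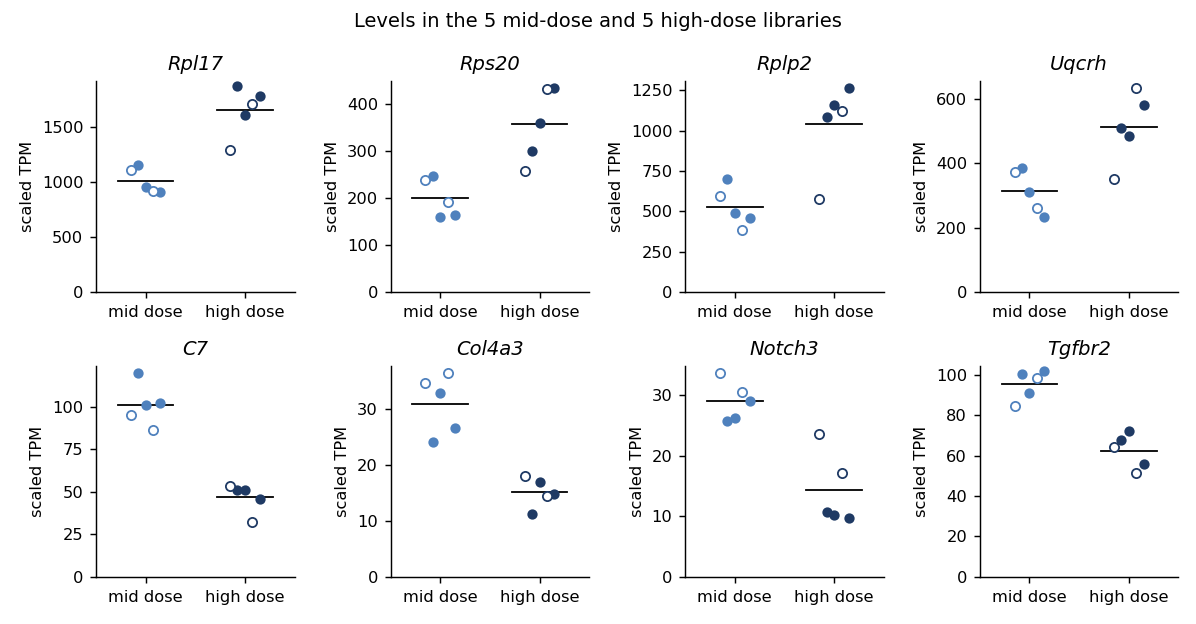
Scaled TPM of 8 genes (vertical axes, from 0) in each mid-dose and high-dose library (points), with the group mean as a line; open circles are the 4 libraries with Cxcl2 under 2 TPM. Rpl17 and Rps20 do not overlap between doses, high-dose library 1 (the leftmost high-dose point) is at 576 for Rplp2 within the mid-dose range, and C7, Col4a3, Notch3 and Tgfbr2 are lower in all 5 high-dose libraries.

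Other parts of the translation machinery, grouped by symbol after single values had been seen, held further calls, nearly all of them higher. Among mitochondrial ribosomal proteins 24 of 78 rose and none fell (median 0.35). Of 12 elongation factors of translation 4 rose (Eef1a1, Eef1b2, Eef1d and Eef1g) and none fell. Among 53 initiation factor genes 11 rose and 2 fell. These counts stand beside 4.07% higher and 3.76% lower over all genes tested.

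Nuclear genes of the mitochondrial respiratory chain, whose products pass electrons to oxygen and drive ATP synthesis, rose in 14 of 30 cases and fell in none, with a median of 0.53 and all 30 differences positive. Uqcrh, a hinge protein of complex III, was at 372, 385, 312, 260.2 and 234 in the mid-dose libraries and at 349.9, 510.3, 483, 635 and 582 in the high-dose libraries. The other 4 high-dose values lay above all mid-dose values, while high-dose library 1 lay among them (difference 0.71 ± 0.15, adjusted p = 0.00952). Ndufa3, a subunit of complex I, was at 126, 154, 129, 113 and 121 and at 135, 215, 199.5, 263 and 249, with the same library low (0.69 ± 0.16, adjusted p = 0.0119). Ndufb1, another complex I subunit, had the largest increase (0.71 ± 0.21, adjusted p = 0.0414), and its call was lost without mid-dose library 1, 3, 4 or 5 or high-dose library 2, 3, 4 or 5 (adjusted p 0.0559 to 0.139) and with TPM as deposited (adjusted p 0.0588). The number of list members that passed moved widely with single libraries. It was 6, 3 and 5 without mid-dose libraries 3, 4 and 5, it was 7, 4, 5 and 3 without high-dose libraries 2, 3, 4 and 5, and it was 25 without high-dose library 1. With the replicate number as a block 9 passed, and with TPM as deposited 6. None of these fits called a member lower.

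Transcripts of the mitochondrial genome, which encodes core subunits of the same chain, were all 13 positive (median 0.58), and 3 of 13 passed. Among them mt-Nd1, a core subunit of complex I, was at 3765, 3043, 2983, 2678 and 2462 in the mid-dose libraries and at 4439, 3691, 5023, 6645 and 5321 in the high-dose libraries. Only high-dose library 2 lay within the mid-dose range, and the difference was 0.74 ± 0.17 (adjusted p = 0.0122). The calls of mt-Nd6 (0.74 ± 0.22, adjusted p = 0.0448) and mt-Co1 (0.58 ± 0.16, adjusted p = 0.0347) held less firmly. That of mt-Nd6 was lost without mid-dose library 2, 3, 4 or 5 or high-dose library 3, 4 or 5 (adjusted p 0.056 to 0.12) and with the replicate number as a block (adjusted p 0.0591), that of mt-Co1 without mid-dose library 3, 4 or 5 or high-dose library 3, 4 or 5 (adjusted p 0.0607 to 0.0933), and both without the 4 libraries with little Cxcl2 (adjusted p 0.123 and 0.155). The count was 5 without high-dose library 2, and no transcript of this list passed with TPM as deposited.

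Proteasome subunits, which form the particle that degrades tagged proteins, had 20 of 21 positive differences (median 0.39), and 2 passed, Psma3 and Psmb1. Psma3 was at 124, 131, 104, 87.1 and 111 in the mid-dose and at 113, 216, 229, 168 and 213 in the high-dose libraries. High-dose library 1 was again inside the mid-dose range and the other 4 above it (0.72 ± 0.16, adjusted p = 0.0118). Psmb1 differed by 0.50 ± 0.14 (adjusted p = 0.0345). Its call was lost without mid-dose library 1, 3, 4 or 5 or high-dose library 2, 3 or 5 (adjusted p 0.0544 to 0.108). It was also lost with TPM as deposited (adjusted p 0.1083). The count was 1 with TPM as deposited and with no filter on low values. It was also 1 without mid-dose library 1, 3, 4 or 5 or high-dose library 2, 3 or 5. Without high-dose library 1, 14 of the 21 subunits passed, all higher, and without the 4 libraries with little Cxcl2, 15 did.

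Among single genes that rose without overlap, Ctla2a, an inhibitor of cathepsin L-type proteases, had the largest increase. It was at 210.3, 291, 157, 139.8 and 203 in the mid-dose libraries and at 299, 487, 512, 497 and 417 in the high-dose libraries. All high-dose values were above all mid-dose values, by a narrow margin between high-dose library 1 and mid-dose library 2, and the difference was 1.16 ± 0.20 (adjusted p = 0.00387). Its close relative Ctla2b rose by 0.84 ± 0.21 (adjusted p = 0.0198), a call lost without mid-dose library 4 (adjusted p 0.0679) and without the 4 libraries with little Cxcl2 (adjusted p 0.134). The pair is similar in sequence, so reads may be split between them.

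Gmnn encodes geminin, which keeps DNA replication from being licensed a second time in a cell cycle. It was at 12.5, 13.1, 12.9, 9.55 and 13.5 and at 20, 20.5, 18.5, 21.3 and 26.3, with every high-dose library above every mid-dose library (0.74 ± 0.15, adjusted p = 0.00847). Ptp4a1, a protein phosphatase, rose by 0.74 ± 0.13 (adjusted p = 0.00528). Its symbol stands for 2 gene identifiers in the table, and the value is that of ENSMUSG00000117310. Dynlt2b, a dynein light chain, rose by 0.82 ± 0.16 (adjusted p = 0.00708), and the long non-coding RNA AV356131 rose by 0.88 ± 0.19 (adjusted p = 0.0112) from levels between 1.18 and 2.41 to levels between 3.18 and 6.02.

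Rn7s1 and Rn7s2, 2 copies of the RNA of the signal recognition particle, had identical values in every library and cannot be told apart. Both rose by 0.86 ± 0.21 (adjusted p = 0.0193), a call lost without mid-dose library 3 or 4 or high-dose library 5 (adjusted p 0.051 to 0.0621) and without the 4 libraries with little Cxcl2 (adjusted p 0.0585). Lbhd1 rose by 0.78 ± 0.20 (adjusted p = 0.0211), a call lost without mid-dose library 4 or high-dose library 3 or 5 (adjusted p 0.054 to 0.0704). Ccng1, cyclin G1 and a target of p53, was the 1 gene of 18 p53 targets that passed, against 7.83% of all genes tested. It rose by 0.47 ± 0.10 (adjusted p = 0.0109), with levels of 47.6, 45.2, 45.9, 45.9 and 39.5 and of 48.6, 64.6, 70.4, 66.2 and 63.8. With TPM as deposited its difference was 0.207 (adjusted p 0.196).

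Antioxidant genes held few calls, and their direction depended on the scaling. Over all genes tested 4.07% were higher and 3.76% lower. Glutathione transferases and peroxidases had 2 of 20 members higher, none lower and 16 positive differences (median 0.34), and antioxidant genes controlled by NRF2, the sensor-regulated factor of oxidant defence, had 1 of 20 higher, none lower and 19 positive (median 0.20). Prdx1, a peroxiredoxin that reduces hydrogen peroxide, was at 463, 432, 416, 449 and 393 in the mid-dose libraries and at 519.8, 514, 640.4, 650.1 and 623 in the high-dose libraries. The groups did not overlap (0.45 ± 0.12, adjusted p = 0.026), but the call was lost without mid-dose library 3, 4 or 5 or high-dose library 3, 4 or 5 (adjusted p 0.056 to 0.0732) and with TPM as deposited (adjusted p 0.376). Gpx1, a glutathione peroxidase, differed by 0.56 ± 0.17 (adjusted p = 0.0481), a call lost without mid-dose library 1, 3 or 4 or high-dose library 2, 3 or 5 (adjusted p 0.0899 to 0.144) and with TPM as deposited (adjusted p 0.129). Gstp1, a glutathione transferase, differed by 0.35 ± 0.10 (adjusted p = 0.0367), a call lost without mid-dose library 3, 4 or 5 or high-dose library 3, 4 or 5 (adjusted p 0.06 to 0.111) and with TPM as deposited (adjusted p 0.644). With TPM as deposited no member of either list was higher, and Gstm2 (-0.46, adjusted p 0.00978), Gstm7 (-0.73, adjusted p 0.0188) and Keap1 (-0.39, adjusted p 0.0144) were lower. With array quality weights 3 glutathione genes were higher and 3 lower, and 5 NRF2 genes were higher. In the list of the aryl hydrocarbon receptor and xenobiotic enzymes, which respond to plant compounds among others, none of 21 passed in limma. Of the 21, 1 had an unadjusted p under 0.05, against 4182 of all 17823 genes tested.

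Fibroblast genes fell in 8 of 19 cases and rose in none, with a median of -0.57 and 1 positive difference. C7, a complement protein made by lung fibroblasts, had the smallest unadjusted p of the lower genes. It was at 95.2, 119.6, 101, 86.2 and 102 in the mid-dose libraries and at 53.1, 50.8, 51.2, 32.1 and 45.8 in the high-dose libraries. The highest high-dose value was well below the lowest mid-dose value, and the difference was -1.11 ± 0.15 (adjusted p = 0.00146). Group means of C7 were 55.8 ± 9.94 (SD, n = 4) in controls, 84.9 ± 17.9 (SD, n = 5) with LPS alone, 77.5 ± 11.5 (SD, n = 5) at the low dose, 101 ± 12.3 (SD, n = 5) at the mid dose and 46.6 ± 8.52 (SD, n = 5) at the high dose. The mid dose was thus the highest of the 5 means and the high dose the lowest.

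Spon2, a secreted matrix protein, fell (-1.11 ± 0.29, adjusted p = 0.023), but high-dose library 5 lay within the mid-dose range. The call was lost without mid-dose library 4 or high-dose library 2 or 3 (adjusted p 0.0529 to 0.0814) and without the 4 libraries with little Cxcl2 (adjusted p 0.161). Npnt, nephronectin, an integrin ligand of basement membranes, differed by -1.06 ± 0.31 (adjusted p = 0.0404) and lost its call without mid-dose library 1, 3 or 4 or high-dose library 2, 3 or 5 (adjusted p 0.0609 to 0.134). The fibroblast count was 5 without mid-dose library 4, without high-dose library 2 or without high-dose library 3, and 13 with TPM as deposited.

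Basement membrane genes, the laminins, type IV collagens and linker proteins of the sheet under epithelium and endothelium, fell in 8 of 19 cases, and none of the 19 differences was positive (median -0.61). Leaving out single libraries gave 6 to 11. Col4a3, a type IV collagen chain of the alveolar basement membrane, was at 34.8, 24.2, 32.8, 36.5 and 26.7 in the mid-dose libraries and at 18, 11.2, 17.1, 14.4 and 14.9 in the high-dose libraries. No library overlapped, and the difference was -0.99 ± 0.16 (adjusted p = 0.00315). Col4a4, its partner chain, was at 18.7, 12.8, 18.2, 18.8 and 16 and at 11.6, 7.58, 9.91, 10.9 and 9.15, also without overlap (-0.73 ± 0.14, adjusted p = 0.00624). Nid1, nidogen 1, which links laminin to type IV collagen, was at 37.1, 41.1, 53.2, 55.1 and 49.4 and at 25.6, 28.2, 33.5, 25.6 and 25.1 (-0.74 ± 0.17, adjusted p = 0.0133). In wider sets found by symbol after the values were seen, 8 of 30 collagen chains fell (Col1a1, Col1a2, Col4a3, Col4a4, Col5a1, Col6a1, Col6a2 and Col13a1) and 4 of 10 laminin chains fell (Lama2, Lama4, Lamb1 and Lamb2). None rose in either set. Among all genes tested 3.76% were lower. The median length was 5989 bases for the collagen chains and 5958 for the laminin chains. In the tenth of the genes with transcripts of 4916 to 6388 bases 8.71% were lower. The basement membrane list had a median of 6615 bases, and in the tenth with the longest transcripts 13.35% were lower.

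Elastic fibre genes, which give the lung its recoil, fell in 3 of 17 cases and rose in none (median -0.52). Ltbp2, a latent TGF-beta binding protein of elastic fibres, was at 31, 22.6, 33.7, 50.3 and 24.6 in the mid-dose libraries and at 26.6, 6.08, 7.59, 19.9 and 9.28 in the high-dose libraries. High-dose library 1 lay within the mid-dose range and the other 4 below it, and the difference was -1.31 ± 0.30 (adjusted p = 0.0127). Mfap4, a microfibril-associated protein, fell by a log2 difference of -0.89 ± 0.21 (adjusted p = 0.015) without overlap, and its adjusted p was 0.0505 without the 4 libraries with little Cxcl2. Fbln1, fibulin 1, differed by -1.27 ± 0.36 (adjusted p = 0.0353), a call lost without mid-dose library 1, 3 or 4 or high-dose library 2, 3 or 5 (adjusted p 0.0633 to 0.121). In this list 5 members passed without high-dose library 1 and 6 with TPM as deposited. Only 2 passed with no filter on low values and without mid-dose library 3 or 4 or high-dose library 3 or 5. Of the matrix metalloproteinases and their inhibitors 1 of 17 passed, Mmp2 (-0.77 ± 0.22, adjusted p = 0.0339), against 7.83% of all genes tested. Mmp2 lost the call without mid-dose library 1, 3 or 4 or high-dose library 2, 3 or 5 (adjusted p 0.0615 to 0.114).

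**Figure D2:**
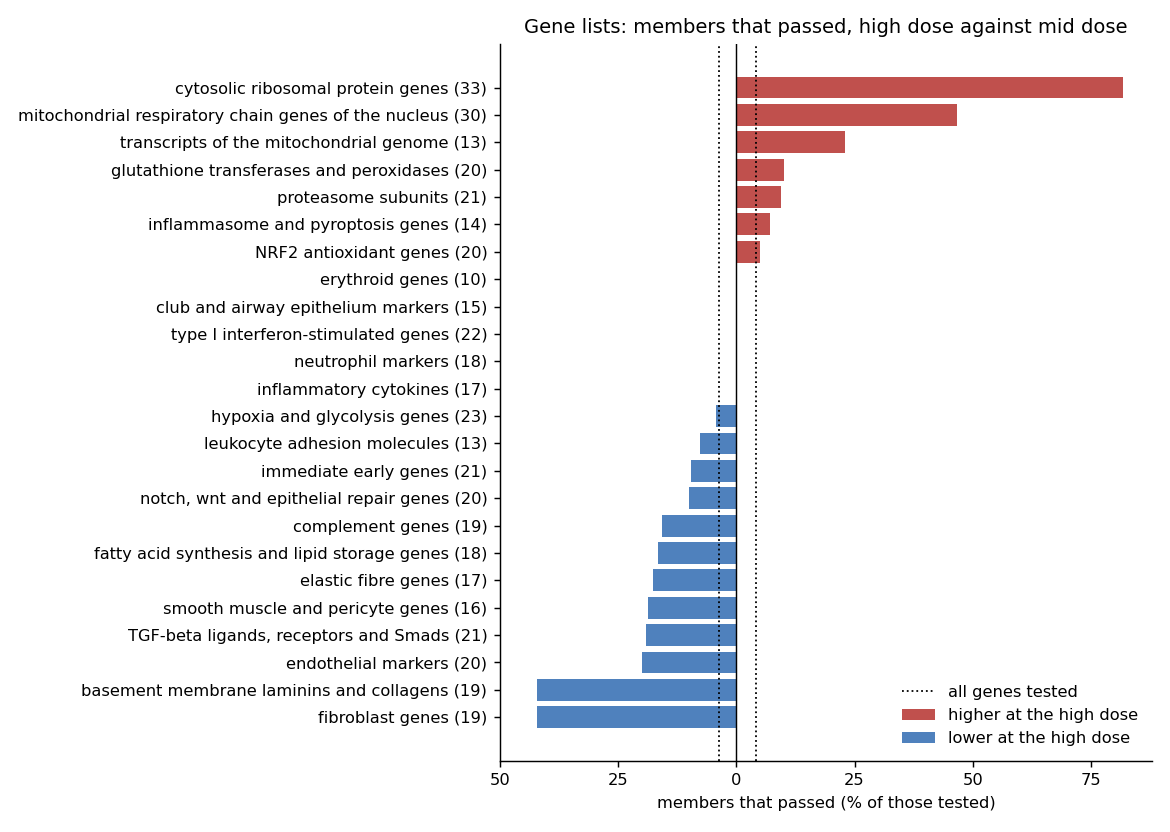
Share of the tested members of 24 gene lists (number tested in brackets) that passed at an adjusted p of 0.05, higher (red, to the right) or lower (blue, to the left) at the high dose; dotted lines are the shares over all genes tested, 4.07% and 3.76%. Ribosomal protein genes reach the largest share on the higher side with 27 of 33, fibroblast and basement membrane genes the largest on the lower side with 8 of 19 each, and the 5 lists in the middle had no member that passed.

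Smooth muscle and pericyte genes fell in 3 of 16 cases and rose in none (median -0.24), and 5 fell with TPM as deposited. Only 2 fell with no filter on low values and without mid-dose library 4 or high-dose library 3 or 5. Notch3, the Notch receptor of vascular smooth muscle cells and pericytes, was at 33.7, 25.7, 26.2, 30.5 and 29.1 in the mid-dose libraries and at 23.5, 10.8, 10.2, 17.2 and 9.74 in the high-dose libraries. The groups did not overlap, the 2 high-dose libraries with little Cxcl2 (1 and 4) were the highest of their group, and the difference was -1.05 ± 0.18 (adjusted p = 0.00384). Pdgfrb, the receptor through which endothelium recruits pericytes, was at 51.5, 41.6, 51.1, 62.5 and 48 and at 32.8, 21.1, 28, 31.9 and 30.4, without overlap (-0.80 ± 0.12, adjusted p = 0.00274). Mylk, myosin light chain kinase, differed by -0.63 ± 0.16 (adjusted p = 0.0204), a call lost without mid-dose library 4 or high-dose library 3 or 5 (adjusted p 0.0644 to 0.0762).

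Receptors of nerve and hormone signals to muscle were among the largest decreases. Adra1a, the alpha-1A adrenergic receptor, was at 5.85, 3.89, 3.96, 5.46 and 3.14 in the mid-dose libraries and at 2.58, 0.801, 1.1, 1.4 and 1.09 in the high-dose libraries. No library overlapped (-1.21 ± 0.22, adjusted p = 0.00537), although the levels were low. Vipr2, a receptor of vasoactive intestinal peptide, was at 12.6, 10.1, 9.26, 11.2 and 8.26 and at 7.76, 2.37, 4.52, 5.2 and 4.53 (-0.99 ± 0.21, adjusted p = 0.0107). Slit3, a secreted guidance ligand, fell by a log2 difference of -1.08 ± 0.18 (adjusted p = 0.00315), and Plxna1, a semaphorin receptor, by -0.96 ± 0.15 (adjusted p = 0.00274), both without overlap. Limch1, which activates non-muscle myosin II, was at 286, 203, 230.1, 267 and 213 and at 164, 123, 122, 96.7 and 91.9 (-1.02 ± 0.18, adjusted p = 0.00389). Mtcl2, a microtubule cross-linking protein, differed by -1.08 ± 0.20 (adjusted p = 0.00547) and Bcl9l, a cofactor of beta-catenin, by -0.98 ± 0.17 (adjusted p = 0.00476). Mcoln3, an ion channel of endosomes, reached the threshold barely (-1.02 ± 0.32, adjusted p = 0.0495) and lost its call without mid-dose library 1, 3 or 4 or high-dose library 1, 2, 3, 4 or 5 (adjusted p 0.0607 to 0.144) and with the replicate number as a block (adjusted p 0.0507).

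Endothelial markers fell in 4 of 20 cases and rose in none (median -0.45). Ephb4, the ephrin receptor of venous endothelium, was at 62.3, 52.1, 55.7, 68.6 and 56.3 in the mid-dose libraries and at 50.6, 33.7, 30.7, 36.9 and 31.5 in the high-dose libraries. No library overlapped (-0.69 ± 0.15, adjusted p = 0.0112). Cdh5, VE-cadherin of endothelial junctions, was at 309.9, 276, 279, 349.5 and 308 and at 231, 211, 220.4, 156 and 186, also without overlap (-0.60 ± 0.14, adjusted p = 0.0119). Calcrl, the receptor of adrenomedullin, fell by a log2 difference of -0.64 ± 0.16 (adjusted p = 0.0194). Both lost the call without the 4 libraries with little Cxcl2 (adjusted p 0.065 for Cdh5 and 0.0546 for Calcrl). Tie1, an endothelial receptor kinase, differed by -0.56 ± 0.15 (adjusted p = 0.0263), a call lost without mid-dose library 1 or 4 or high-dose library 2, 3 or 5 (adjusted p 0.0586 to 0.0827). Without high-dose library 1, 9 markers passed, all lower, and 10 did with TPM as deposited. The count was 2 with no filter on low values and 3 without mid-dose library 1 or 4 or high-dose library 2, 3 or 5.

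TGF-beta signalling, in which ligands bind paired receptor kinases that phosphorylate Smad transcription factors, had 4 of 21 genes lower and none higher (median -0.16). Over all genes tested 3.76% were lower. The list had a median transcript length of 5090 bases. In the tenth of the genes with transcripts of 4916 to 6388 bases 8.71% were lower, with a median difference of -0.11. On the receptor side, Tgfbr2, the type II receptor, was at 84.8, 100.2, 91.1, 98.4 and 102 in the mid-dose libraries and at 64.5, 67.6, 72.2, 51.2 and 55.9 in the high-dose libraries. Acvrl1, the type I receptor of endothelium also called ALK1, was at 347, 286, 259, 356 and 331 and at 242, 207, 184, 159.6 and 189.5. Neither overlapped between the doses, with differences of -0.61 ± 0.11 (adjusted p = 0.00537) and -0.69 ± 0.15 (adjusted p = 0.0112). Among the Smads, Smad3, which carries the TGF-beta signal, was at 17.2, 17.7, 16.6, 19.8 and 18.9 and at 14.3, 14.5, 13.4, 11.8 and 12.5 (-0.41 ± 0.07, adjusted p = 0.00315). The inhibitory Smad7 differed by -0.48 ± 0.12 (adjusted p = 0.0185), a call lost without high-dose library 5 (adjusted p 0.0617) and without the 4 libraries with little Cxcl2 (adjusted p 0.0572). No ligand of the list passed. Without high-dose library 1, 8 genes of the list passed, all lower, and 7 with TPM as deposited. The count was 3 with no filter on low values and without high-dose library 5.

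In the list of Notch, Wnt and epithelial repair genes 2 of 20 fell and none rose. Notch1, the Notch receptor of endothelium and many epithelia, was at 24.3, 19.6, 26.1, 29.8 and 24.1 in the mid-dose libraries and at 18.6, 12.9, 13.5, 12.1 and 9.77 in the high-dose libraries, without overlap (-0.86 ± 0.17, adjusted p = 0.00753). Hgf, a growth factor of mesenchymal cells for epithelium, differed by -0.87 ± 0.21 (adjusted p = 0.0163), a call lost without mid-dose library 4 (adjusted p 0.0593) and without the 4 libraries with little Cxcl2 (adjusted p 0.0974). The count was 1 without mid-dose library 4, 5 without high-dose library 1 and 8 with TPM as deposited.

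Complement genes fell in 3 of 19 cases and rose in none (median -0.38), among them C7, described above, and Serping1. With TPM as deposited 5 fell. Only 2 fell with no filter on low values and without mid-dose library 3 or 4 or high-dose library 2, 3 or 5. Serping1, the C1 inhibitor, was at 360.4, 416, 479.5, 432 and 424 in the mid-dose libraries and at 259.8, 316, 253, 203 and 254 in the high-dose libraries, without overlap (-0.72 ± 0.17, adjusted p = 0.0142, and 0.0509 without the 4 libraries with little Cxcl2).

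Fatty acid synthesis and lipid storage genes fell in 3 of 18 cases and rose in none (median -0.21). Fads2, a fatty acid desaturase, was at 26.5, 28, 24.7, 34.6 and 27.9 in the mid-dose libraries and at 23, 17.1, 17.9, 19.3 and 22.2 in the high-dose libraries, without overlap (-0.49 ± 0.10, adjusted p = 0.00709). Acly, which makes cytosolic acetyl-CoA, differed by -0.43 ± 0.10 (adjusted p = 0.0145), a call lost without mid-dose library 4 or high-dose library 5 (adjusted p 0.0506 to 0.0541). Srebf1, the transcription factor of this pathway, differed by -0.43 ± 0.11 (adjusted p = 0.0254), a call lost without mid-dose library 4 or 5 or high-dose library 3 or 5 (adjusted p 0.0588 to 0.088). The count was 1 without mid-dose library 4 or high-dose library 5, 7 without high-dose library 1 and 9 with TPM as deposited. In the list of hypoxia and glycolysis genes 18 of 23 differences were positive (median 0.28, and 0.02 with TPM as deposited), but the 1 member that passed was lower, Vegfa, the main growth factor of vessels. Vegfa was at 434, 375, 397, 444 and 498 and at 361, 199, 265, 264 and 280.4, without overlap (-0.67 ± 0.16, adjusted p = 0.0163), and lost the call without mid-dose library 4 (adjusted p 0.0504).

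Of the immediate early genes, which respond to stimuli within minutes, 2 of 21 fell and none rose (median -0.08). Fosb, an AP-1 subunit, was at 1.59, 3, 2.18, 2.3 and 4.14 in the mid-dose libraries and at 0.784, 1.32, 1.23, 0.587 and 0.428 in the high-dose libraries (-0.95 ± 0.21, adjusted p = 0.0117). Jun, its partner, was at 142, 159.7, 165, 154 and 194 and at 134, 133, 117, 104 and 123 (-0.41 ± 0.11, adjusted p = 0.0249). Both were lower in every high-dose library than in any mid-dose library, and the call of Jun was lost without mid-dose library 3, 4 or 5 or high-dose library 3, 4 or 5 (adjusted p 0.051 to 0.0648).

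No member passed in either direction in the lists of inflammatory cytokines (17 tested), CXC chemokines (12), CC chemokines (17), NF-kB subunits and feedback genes (19), LPS sensing and Toll-like receptors (22), acute-phase proteins (17), neutrophil markers (18), type I interferon-stimulated genes (22) or interferon-gamma-inducible GTPases (16). At an unadjusted p under 0.05, 5 of the 158 genes in these lists differed in limma, against 4182 of all 17823 genes tested. Among all genes tested, 4.07% passed as higher and 3.76% as lower. Of the other inflammatory lists, that of inflammasome and pyroptosis genes had 1 of 14 members higher, Nek7, a kinase of the NLRP3 inflammasome (0.39 ± 0.11, adjusted p = 0.0308), a call lost without mid-dose library 4 or 5 or high-dose library 2, 3, 4 or 5 (adjusted p 0.059 to 0.108), without the 4 libraries with little Cxcl2 (adjusted p 0.0778) and with TPM as deposited (adjusted p 0.477). That of leukocyte adhesion molecules had 1 of 13 lower, Icam2, an endothelial ligand of leukocyte integrins (-0.32 ± 0.09, adjusted p = 0.0337), a call lost without mid-dose library 1, 2 or 4 or high-dose library 3, 4 or 5 (adjusted p 0.057 to 0.0827), without the 4 libraries with little Cxcl2 (adjusted p 0.25) and with the replicate number as a block (adjusted p 0.05003). Neutrophil markers had the largest median of the lists, 0.72 with 14 of 18 differences positive. That median was 0.01 without mid-dose library 4, 0.32 without mid-dose library 1, 0.11, 0.17 and 0.36 without high-dose libraries 2, 3 and 5, 1.11 without the 4 libraries with little Cxcl2, and 1.56 with array quality weights, where 6 markers passed, all higher. Il1b, interleukin 1 beta, was at 20.4, 891, 227, 8.31 and 391 in the mid-dose libraries and at 8.28, 656, 718, 5.73 and 439.9 in the high-dose libraries. S100a9, a calprotectin subunit of neutrophils, was at 373, 4166, 887, 94.3 and 2420 and at 203, 6449, 7240, 110.5 and 3760. Libraries 1 and 4 of both doses, those with little Cxcl2, were the lowest of their group for both genes. Saa3, a serum amyloid A made in inflamed lung, was at 5.59, 9192, 4632, 7.19 and 7007 and at 7.18, 21950, 15080, 10.2 and 15710, and its 3 strongly responding high-dose libraries lay above the 3 strongly responding mid-dose libraries. The differences were -0.06 ± 1.41 for Il1b (adjusted p = 0.989), 0.73 ± 1.11 for S100a9 (adjusted p = 0.766) and 0.98 ± 2.72 for Saa3 (adjusted p = 0.885). That for Cxcl2 was 0.20 ± 2.11 (adjusted p = 0.975). For these 4 genes the libraries of 1 dose differed among themselves far more than the doses did. With standard errors of 1.11 to 2.72, differences of this size were not detectable, and equal inflammation at both doses is not shown.

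**Figure D3:**
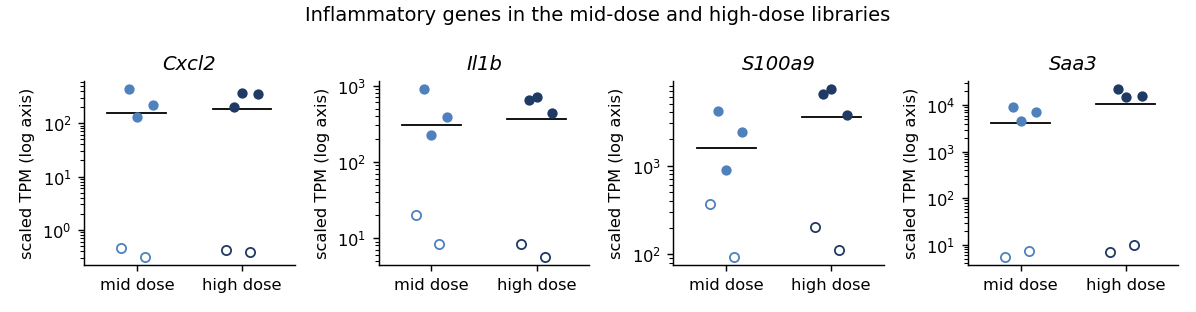
Scaled TPM on a log axis for 4 inflammatory genes in each mid-dose and high-dose library (points, group mean as a line, open circles for the 4 libraries with Cxcl2 under 2 TPM). Each dose splits into 2 libraries at low and 3 at high levels, so that Cxcl2 spans 0.316 to 430 at the mid dose and 0.388 to 361 at the high dose.

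Gbp2, an interferon-inducible GTPase, was at 39, 62, 471, 32.9 and 47.4 in the mid-dose libraries and at 26.6, 158, 85.2, 20.9 and 74.9 in the high-dose libraries. Mid-dose library 3 stood apart from the other 4, and all 16 GTPases of that list had negative differences (median -0.54). Without mid-dose library 3 the median was 0.02 and 8 of 16 were positive, and it was -0.38 without high-dose library 1 and -0.30 without high-dose library 4, with 3 positive each. Platelet and megakaryocyte genes had 12 of 12 positive differences (median 0.50), and none passed in limma. An unadjusted p under 0.05 was found for 5 of the 12, against 4182 of all 17823 genes tested. Pf4, platelet factor 4, differed by 0.72 ± 0.36 (adjusted p = 0.227) and Ppbp by 0.88 ± 0.42 (adjusted p = 0.214). Club and airway epithelium markers had 14 of 15 positive differences (median 0.35), of which none passed in limma and 2 had an unadjusted p under 0.05. Scgb1a1, the main club cell secretoglobin, was at 57240, 48630, 51540, 19830 and 44970 and at 78710, 36470, 57170, 91010 and 84920, with mid-dose library 4 the lowest (0.66 ± 0.30, adjusted p = 0.173). Without the 4 libraries with little Cxcl2 the median of this list was 0.05 with 9 of 15 positive, and the share of Scgb1a1 in the TPM differed by 0.039 percentage points between the doses, against 1.66 with all 10 libraries. The median was 0.09 with TPM as deposited and 0.14 without high-dose library 4. Type I alveolar cell genes had 1 of 12 members lower and none higher, against 3.76% and 4.07% of all genes tested. The lower member was Clic5, a chloride channel protein (-0.41 ± 0.12, adjusted p = 0.0465). Its call was lost without mid-dose library 1, 3, 4 or 5 or high-dose library 2, 3, 4 or 5 (adjusted p 0.063 to 0.115) and with the replicate number as a block (adjusted p 0.058). Type II alveolar cell genes had 1 of 15 lower, Abca3, the lipid transporter of surfactant bodies (-0.62 ± 0.16, adjusted p = 0.0217), and none higher, and that call was lost without mid-dose library 3 or 4 or high-dose library 3 or 5 (adjusted p 0.0577 to 0.078).

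Markers of tissue that a lung sample can carry varied between libraries. The summed level of 12 cardiac muscle genes was 432 to 1804 at the mid dose and 243 to 2702 at the high dose, that of 6 skeletal muscle genes 23.4 to 180 and 14.3 to 204, and that of 13 adipocyte genes 327 to 754 and 323 to 1091. No member of these lists passed in limma. At an unadjusted p under 0.05 it was 1 of the 31 genes, against 4182 of all 17823 genes tested. The skeletal muscle myosin Myh4 was at or near 0 in all 10 libraries. The part of such tissue in the differences was not tested.

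Some values of whole libraries also differed between the mid and the high dose, and their part in the gene differences was not tested. Haemoglobin genes took 1.81% ± 0.52 (SD, n = 5) of the TPM at the mid dose and 1.17% ± 0.18 (SD, n = 5) at the high dose, without overlap between 1.50 to 2.74% and 0.995 to 1.40% (two-sided exact permutation test, p = 0.00794, the smallest that 252 assignments can give, adjusted p = 0.0476 over 8 values). Ribosomal protein genes took 8.72% ± 0.73 (SD, n = 5) and 10.8% ± 1.1 (SD, n = 5) of the TPM (exact permutation p = 0.0238, adjusted 0.0476). The 100 most abundant genes took 35.0% ± 2.5 (SD, n = 5) and 40.3% ± 2.8 (SD, n = 5) (exact permutation p = 0.0238, adjusted 0.0476). The scaling factor was 1.14 ± 0.08 (SD, n = 5) and 0.947 ± 0.074 (SD, n = 5), with high-dose library 1 within the mid-dose range (exact permutation p = 0.0159, adjusted 0.0476). At the low dose ribosomal protein genes took 10.1% ± 0.3 (SD, n = 5) and the 100 most abundant genes 39.0% ± 2.3 (SD, n = 5), and the scaling factor was 1.01 ± 0.04 (SD, n = 5), each between the mid-dose and the high-dose mean. Shares of Scgb1a1, of Sftpc and of mitochondrial transcripts and the number of genes at 1 TPM or more did not pass (adjusted p 0.102 to 0.643, exact permutation tests). Erythroid genes, which include the haemoglobins, had none of 10 members passed in limma after scaling, also at an unadjusted p.

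**Figure D4:**
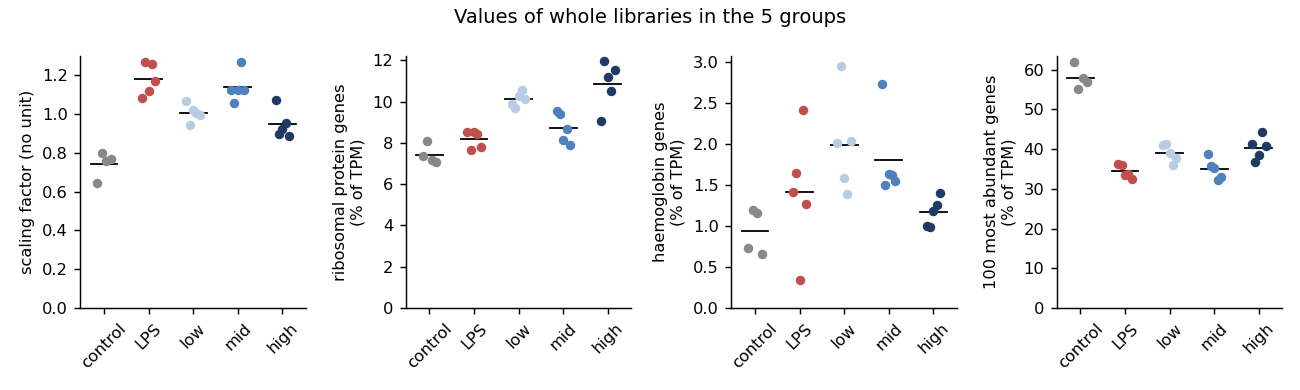
Scaling factor and share of the TPM in 3 gene groups (vertical axes, from 0) for each library of the 5 groups (points, group mean as a line). The ribosomal share is higher and the haemoglobin share lower at the high dose than at the mid dose, high-dose library 1 has the lowest ribosomal share of its group (9.08%), and the controls differ from all challenged groups in the share of the 100 most abundant genes.

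The calls were not spread evenly over transcript lengths. Among the tenth of the genes with the shortest transcripts (median 563 bases for the longest transcript of a gene in GENCODE M21) 133 were higher and 7 lower, and among the tenth with the longest (median 7846 bases) 13 were higher and 219 lower. Across 16407 genes with a length, 92.1% of those tested, Spearman's rho between length and difference was -0.33, and it was -0.32 without ribosomal protein genes and pseudogenes. For the GC content of the same transcript rho was -0.26, with 147 higher and 7 lower genes in the tenth with the lowest GC and 27 and 133 in the tenth with the highest. Genes are not independent replicates, so these are descriptions of 1 contrast. Some of the families with many calls lay towards the ends of the length range. The median transcript length was 1076 bases for the ribosomal protein genes found by symbol, 999.5 bases for 38 complex I subunits (20 higher, none lower), 5989 bases for the collagen chains, 5958 bases for the laminin chains and 8752 bases for the 4 Notch receptors (2 lower). How many of the 66 lists followed length was not counted. Some went in the direction of rho, with a median difference of 0.39 for proteasome subunits (median 1509 bases). It was -0.52 for elastic fibre genes (4741 bases), -0.16 for TGF-beta genes (5090 bases) and -0.61 for basement membrane genes (6615 bases). Others did not, with -0.22 for erythroid genes (1407 bases) and -0.15 for MHC class II presentation genes (1539.5 bases). Hypoxia and glycolysis genes (3289 bases) had a median difference of 0.28 and complement genes (2676 bases) one of -0.38. That of CC chemokines (870 bases) was 0.08, and it ranged from -0.43 to 0.77 over the alternative fits. The part of transcript length, RNA integrity or library preparation in the lists' differences was not tested, and TPM without reads gives no measure of RNA integrity per library.

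**Figure D5:**
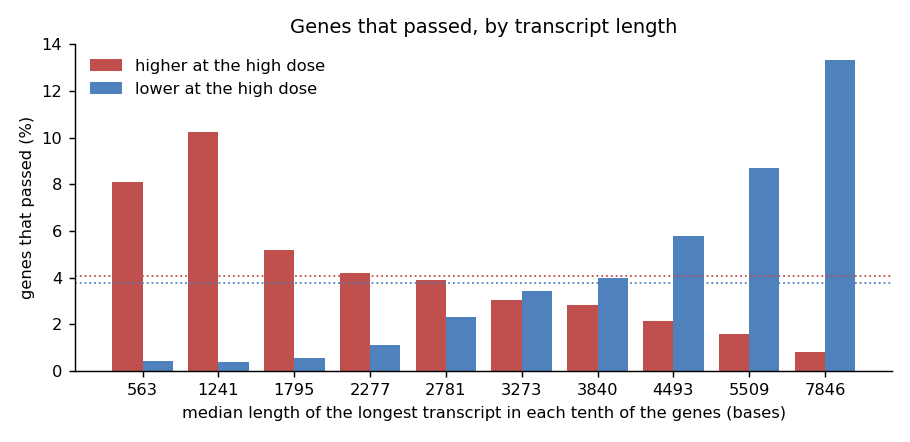
Percent of genes that passed, higher (red) or lower (blue) at the high dose, in 10 equal groups of genes ordered by the length of their longest transcript (horizontal axis, median length in bases); dotted lines are the shares over all genes tested. The higher share falls from 8.11% and 10.2% in the 2 shortest groups to 0.792% in the longest, and the lower share increases from 0.427% to 13.3%.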

How the data were processed

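Lung RNA was depleted of ribosomal RNA and sequenced in paired ends on a NovaSeq 6000, per the labels' protocols. The deposited table gives TPM rounded to 2 decimals, and the authors used HISAT2, StringTie, RSEM, DESeq2 and build GRCm39, per the submitters' processing notes, with versions and annotation not given in the sources used here. It holds 78298 genes and no counts, so depth is unknown and no count model could be used.

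Libraries were grouped by their labels, which number them as biological replicates. Genes with a deposited TPM of at least 1 in at least 4 libraries were kept (17823), divided by median-of-ratios factors and fitted as log2(scaled TPM + 1) with limma 3.58.1 (R 4.3.3), with 1 mean per group over 24 libraries, a variance trend and a robust prior. Single values per library were compared by exact permutation. Lists were described by counts and medians. Named genes were the 12 largest increases and decreases that passed without overlap and at a mean level of at least 1, and in each list the 3 largest that passed or the 2 most abundant members; 2 genes that this rule names are not reported here. Members and lists were chosen with earlier results of these data known. The fit was also run on simulated data in which all groups shared 1 spread per gene by construction. That run cannot decide between the fit to 24 libraries and the fit to the 10 libraries alone.

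Mid-dose and high-dose libraries share replicate numbers, whose meaning the labels do not give. Deviations from the group means correlated between same-numbered libraries (r = 0.50, 0.48, 0.18, 0.54 and 0.26 for numbers 1 to 5), but mid-dose library 4 correlated most with high-dose library 1 (r = 0.60), and libraries 1 and 4 of both doses are those with little Cxcl2. Start sequences came from RefSeq, and transcript lengths from GENCODE M21, a build other than that of the table, matched by gene identifier. Alternatives were other scalings, filters, pseudocounts, weights, a replicate block, the 10 libraries alone and leaving out libraries.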

Additional observations from a re-analysis of the deposited data

Results flagged for a closer look

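Of 170 groups of 5 library values examined, 10 held a value that stood apart from the other 4 by Dixon's criterion (0.71). Chance alone gives this in about 5% of groups, a share close to that found. High-dose library 1 stood apart for Rplp2, at 576 scaled TPM against 1086 to 1264 in the other 4, and for Ccng1, at 48.6 against 63.8 to 70.4. Mid-dose library 4 stood apart for Scgb1a1, at 19830 against 44970 to 57240, for Acly, at 108 against 80.5 to 84.5, and for Gmnn, at 9.55 against 12.5 to 13.5. Mid-dose library 5 stood apart for Lbhd1, at 2.50 against 1.64 to 1.83, and for Ccng1, at 39.5 against 45.2 to 47.6. High-dose library 3 stood apart for Lbhd1, at 6.08 against 3.22 to 3.88. Mid-dose library 3 stood apart for Gbp2, at 471 against 32.9 to 62.0. Mid-dose library 1 stood apart for the haemoglobin share of the TPM, at 2.74% against 1.50 to 1.64%.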

How the results depend on the processing

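The number of genes that passed (1396, 725 higher and 671 lower) was within 1.5 times of that value under upper-quartile scaling, a filter on mean TPM, a pseudocount of 0.1, the replicate block (1287 genes, 649 higher and 638 lower) and no variance trend. It was 3311 (171 higher, 3140 lower) with TPM as deposited, 523 (280 and 243) with no filter on low values and 42819 genes tested, 4990 (2652 and 2338) with array quality weights, 39 (15 and 24) at an absolute difference of at least 1, 2142 (1300 and 842) without the 4 libraries with little Cxcl2, and 0 (0 and 0; 3276 at an unadjusted p under 0.05) with the 10 libraries alone. A replicate block with the 10 libraries alone, added after seeing the data, gave 0 (0 and 0; 3864 unadjusted). Leaving out 1 library gave 439 (without mid-dose library 4) to 3002 (without high-dose library 1), with 240 to 1625 higher and 199 to 1377 lower; it gave 766 without mid-dose library 3, 653 without high-dose library 3 and 474 without high-dose library 5. The cause was not tested. Counted fit by fit, at least 1380 of the 1396 genes kept their direction. How many kept it in all fits together was not counted. Of 68 genes described above that passed, 42 kept the call with no filter, 57 with TPM as deposited, 61 with upper-quartile scaling, 64 with the replicate block, 53 without the 4 libraries with little Cxcl2, 41 to 67 without 1 library and 0 with the 10 libraries alone. None changed direction. The block ended the calls of mt-Nd6, Mcoln3, Clic5 and Icam2 and no other of these 68, and among the lists described with 2 or more calls in a direction it moved only the count of respiratory chain genes by over 1.5 times. Depth is unknown from TPM, so what it limits for genes of low level could not be measured.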
